A study of Mus musculus with 8 samples.

Results

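Type I, III, V and VI collagen, periostin and versican are matrix products of connective tissue cells, and the transcripts described here are those of 10 such genes in cells sorted as endothelial from mouse embryos. The 10 genes were Col1a1, Col1a2, Col3a1, Col5a1, Col5a2, Col6a1, Col6a2, Col6a3, Postn and Vcan, of 23337 genes in the deposited table. They were found by gene symbol, each with 1 row. The list was chosen from earlier results on these same libraries and this same contrast, so the differences between groups are given as a description, with no test of the 10 genes.

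The tamoxifen libraries came from embryos whose mothers were gavaged with tamoxifen at E12.5, an embryonic stage, and the libraries without tamoxifen from embryos of mothers not gavaged. Both groups were taken at E15.5 from Cdh5-CreERT2(PAC);Rosa26fsTRAP mice, and the cells were sorted by flow cytometry from whole embryos. CreERT2 is a recombinase that tamoxifen activates, here under control of Cdh5, the gene for the endothelial junction protein VE-cadherin, and Rosa26fsTRAP is a reporter that needs the recombinase. The samples are nonetheless labelled wild type in genotype, and no group separates tamoxifen from recombinase activity. The labels list 4 samples per group and do not tie them to litters or embryos, so how much of the spread between libraries is technical is not known. The comparison asks which transcripts differ after tamoxifen in cells sorted as endothelial.

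The header of the table is 1 field short, so its 8 library names can be set over the last 8 or the first 8 of its 9 value columns. Columns 7 to 9 carry a tamoxifen name in both placements and columns 3 to 5 a name without tamoxifen, and these 6 are called tamoxifen libraries 1 to 3 and libraries without tamoxifen 1 to 3, in table order. Columns 6 and 10 are given apart. Column 6 is a library without tamoxifen in the placement over the last 8 columns, which is how R reads a short header, and a tamoxifen library in the other. The placement decides the size of the differences below. The median log2 fold change of the 10 genes was 3.29 in the 6 libraries. It was 0.69 with the names over the last 8 columns, where column 6 joins the libraries without tamoxifen and column 10 the tamoxifen libraries. It was 4.18 with the names over the first 8, where column 6 joins the tamoxifen libraries, and 2.55 with column 10 alone added to the tamoxifen libraries.

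The 6 libraries held 12212472 to 19908404 reads in genes. Of these, 29.4% to 38.7% were of Rn45s, a ribosomal RNA precursor, which left 8436939 to 13283464 reads for other genes. Defining endothelial transcripts were present in all 6, with Cdh5 at 5201, 4778 and 1978 normalised reads with tamoxifen and 5020, 4282 and 2948 without. The macrophage receptor Csf1r was higher than Cdh5 in every 1 of the 6, at 7464 to 12229 normalised reads, so the sorts also held myeloid RNA. In bulk RNA, more cells of a type and more RNA per cell cannot be told apart. Values are the authors' normalised read counts, whose size factors were the authors' own.

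Fibrillar collagens are secreted as procollagen triple helices, trimmed outside the cell and packed into banded fibrils. Type I collagen, the main fibril of skin, bone and tendon, joins chains from Col1a1 and Col1a2, type III is built from Col3a1 alone and is plentiful in embryonic skin and vessel walls, and type V starts and limits fibrils. Type VI collagen forms beaded filaments around cells. Periostin binds collagen and aids its cross-linking, and versican is a large proteoglycan that binds hyaluronan in loose embryonic matrix. Fibroblasts and related mesenchymal cells are the usual source of these transcripts in the embryo.

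Promoters of the 10 genes are illustrated by 4 windows, chosen because they hold a match to CCAAT or TATAAA. The sequences are the 250 bases before the start of transcription, from RefSeq on GRCm38.p6, written 5′ to 3′ on the strand of the gene, with the match in capitals. RefSeq windows were found for 8 of the 10 genes, 10 windows in all. Another Postn window, chr3:54359017-54359266, held no match and is not shown. Col1a1 and Col5a2 are named only. The match is CCAAT, 109 bases before the start, in Col1a2, and TATAAA in Col3a1 and Postn, 117 and 26 bases before the start. In Vcan it is CCAAT on the opposite strand, written ATTGG, 103 bases before the start.
Col1a2 promoter, chr6:4505368-4505617, plus strand: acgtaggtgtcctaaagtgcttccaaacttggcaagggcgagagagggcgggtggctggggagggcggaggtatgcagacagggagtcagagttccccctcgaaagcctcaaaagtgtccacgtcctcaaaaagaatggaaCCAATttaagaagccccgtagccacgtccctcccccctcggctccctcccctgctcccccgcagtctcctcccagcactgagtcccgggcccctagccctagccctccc
Col3a1 promoter, chr1:45311288-45311537, plus strand: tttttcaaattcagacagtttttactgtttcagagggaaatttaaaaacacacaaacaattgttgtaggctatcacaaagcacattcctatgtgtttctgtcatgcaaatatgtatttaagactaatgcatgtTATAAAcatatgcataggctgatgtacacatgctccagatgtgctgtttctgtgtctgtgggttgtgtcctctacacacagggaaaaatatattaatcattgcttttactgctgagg
Postn promoter, chr3:54360857-54361106, plus strand: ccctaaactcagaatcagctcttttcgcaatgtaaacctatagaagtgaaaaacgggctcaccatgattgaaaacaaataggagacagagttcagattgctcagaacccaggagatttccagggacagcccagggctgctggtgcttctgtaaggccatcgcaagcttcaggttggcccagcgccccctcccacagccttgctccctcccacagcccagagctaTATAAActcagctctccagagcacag
Vcan promoter, chr13:89742513-89742762, minus strand: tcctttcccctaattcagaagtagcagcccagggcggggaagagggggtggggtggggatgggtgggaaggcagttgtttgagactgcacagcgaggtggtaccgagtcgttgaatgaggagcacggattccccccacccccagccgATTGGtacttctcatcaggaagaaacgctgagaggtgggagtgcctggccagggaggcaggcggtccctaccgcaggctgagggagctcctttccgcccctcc
CCAAT on either strand was found in 2 of the 10 windows, against 33.8% of 32851 promoters of the same length. TATAAA on either strand was in 2 of the 10, against 12.4%. GAANNTTC, the core of the heat shock element, was in 0 of the 10, against 6.69%. No window held matches to more than 1 of the 3 motifs, so none overlap. A match says only that the letters are in the window. The Col1a2 window lies within the GENCODE span of that gene, whose annotated start is further upstream.

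Type I collagen transcripts were far higher in tamoxifen libraries 1 and 2 than in the other 4. Col1a1, the gene for the pro-alpha 1 chain, lies on chromosome 11 at 94936224 to 94953042 on GRCm38, the build also called mm10. It had 26219, 42746 and 1988 normalised reads in the tamoxifen libraries, against 1866, 1179 and 896 in the libraries without tamoxifen. Tamoxifen libraries 1 and 2 stood far above the rest, and tamoxifen library 3 was just above the highest library without tamoxifen. The mean was 23651 ± 20500 with tamoxifen and 1314 ± 499 without (SD, n = 3 each), and the log2 fold change was 3.38 ± 0.97 (SE). Col1a2, which encodes the partner chain and lies on chromosome 6 at 4504814 to 4541544, had 12483, 19143 and 933 normalised reads with tamoxifen, against 943, 542 and 393 without. Here tamoxifen library 3 was within the range of the libraries without tamoxifen, so the groups overlapped. The log2 fold change was 3.37 ± 0.98 (SE).

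Col3a1, whose product often lies in the same fibrils as type I collagen, lies on chromosome 1 at 45311538 to 45349706. It had 12320, 18365 and 959 normalised reads with tamoxifen, against 1095, 524 and 379 without, a log2 fold change of 3.32 ± 0.98 (SE). The order of the 6 libraries was that of Col1a2, with tamoxifen library 3 below library 1 without tamoxifen.

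Type V collagen differed between its chains. Col5a1, the gene for the chain found in all forms of type V, lies on chromosome 2 at 27886425 to 28039514. It had 3997, 6534 and 466 normalised reads with tamoxifen, against 498, 282 and 218 without, a log2 fold change of 2.87 ± 0.85 (SE). Col5a2, which lies beside Col3a1 on chromosome 1 at 45374321 to 45503282, had 1878, 2635 and 298 normalised reads with tamoxifen, against 520, 571 and 221 without. Its log2 fold change of 1.495 ± 0.74 (SE) was the lowest of the 10. It was also the member with the smallest gap between the lower of tamoxifen libraries 1 and 2 and the highest library without tamoxifen, 3.29-fold. The groups overlapped for both genes.

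The 3 main chains of type VI collagen are joined 1 to 1 to 1 into the monomer. Col6a1 and Col6a2 are neighbours on chromosome 10, at 76708792 to 76726168 and 76595762 to 76623630, and Col6a3, the gene for the largest chain, lies on chromosome 1 at 90765923 to 90843971. Col6a1 had 1893, 2795 and 140 normalised reads with tamoxifen, against 170, 83.2 and 55.5 without, a log2 fold change of 3.28 ± 0.99 (SE). Col6a2 had 1827, 2778 and 133 with tamoxifen, against 141, 74.5 and 47.2 without, a log2 fold change of 3.45 ± 1.003 (SE), the highest of the 10. The lowest of these values rests on 62 reads, with an exact 95% Poisson interval of 47.5 to 79.5 reads for counting error only. Col6a3 had 3715, 4617 and 332 with tamoxifen, against 334, 172 and 185 without, a log2 fold change of 3.02 ± 0.87 (SE). In all 3 genes tamoxifen libraries 1 and 2 were above every library without tamoxifen, tamoxifen library 3 was inside their range, and the groups overlapped.

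Periostin and versican transcripts were the members, beside Col1a1, whose groups did not overlap. Postn, on chromosome 3 at 54361109 to 54391037, had 1575, 1799 and 148 normalised reads with tamoxifen, against 92.0, 90.7 and 51.0 without. All 3 tamoxifen libraries were above the others, library 3 by the least. The mean was 1174 ± 895 with tamoxifen and 77.9 ± 23.3 without (SD, n = 3 each), and the log2 fold change was 3.30 ± 0.84 (SE). Vcan, on chromosome 13 at 89655312 to 89742509, had 1004, 1129 and 267 normalised reads with tamoxifen, against 108, 111 and 103 without. Its libraries without tamoxifen were the closest together of the 10 genes, with a highest to lowest ratio of 1.08, where Col6a1 had 3.06. Vcan also had the highest value of tamoxifen library 3 relative to the mean without tamoxifen, 2.49-fold, where Col5a2 had 0.682-fold. The mean of Vcan was 800.0 ± 466 with tamoxifen and 107 ± 3.89 without (SD, n = 3 each), and the log2 fold change was 2.63 ± 0.47 (SE).

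**Figure D1:**
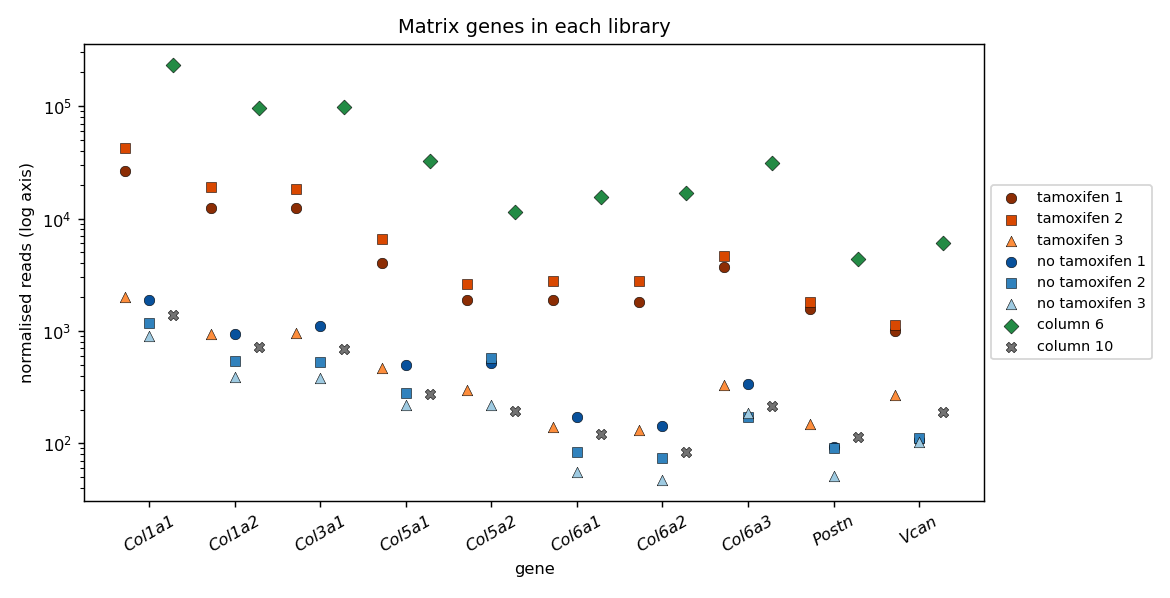
Normalised reads of the 10 genes in each library on a log axis, with the 3 tamoxifen libraries left of the 3 libraries without tamoxifen, and columns 6 and 10 apart. Tamoxifen libraries 1 and 2 are above every library without tamoxifen for each gene, tamoxifen library 3 is within or above the range without tamoxifen, and column 6 is highest.

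The 10 genes shared an order of libraries. Tamoxifen library 2 was above tamoxifen library 1 in 10 of 10, library 1 without tamoxifen was the highest of its group in 8, and library 3 without tamoxifen the lowest in 9. Tamoxifen library 3 was above every library without tamoxifen in 3 genes, Col1a1, Postn and Vcan, and within their range in the other 7. The groups thus did not overlap for 3 of 10, where 6.24% of all 13480 tested genes were higher with no overlap. The list was chosen on this contrast, so nothing is read from that difference. In share of the reads outside Rn45s, the 10 genes together took 0.758%, 1.17% and 0.0608% with tamoxifen, against 0.0639%, 0.0398% and 0.0284% without. The Wilson 95% interval for tamoxifen library 3 was 0.0595% to 0.0621%, for counting error only.

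The median log2 fold change of the 10 genes was 3.29, with a range of 1.495 to 3.45, and the median over all 13480 tested genes was -0.02. All 10 were more than 2-fold above every library without tamoxifen in tamoxifen library 1, and all 10 in library 2, where 4.59% and 4.82% of tested genes were. In tamoxifen library 3 this held for 1 of the 10, Vcan, where 0.542% of tested genes were. The 2-fold limit was taken after the values were seen.

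Across all genes, limma with Benjamini-Hochberg adjustment called 6 genes higher, 0.0445% of those tested, and 0% lower. All 6 were stress or immediate early genes, and none was a member. Of the 10 genes, 9 had an unadjusted p under 0.05 in limma, where 4.89% of all tested genes were higher at that level, and their adjusted p in limma ran from 0.227 to 0.580. edgeR with TMM on recovered reads called 0 of the 10, and DESeq2 called 9, without Col5a2, where it called 1.83% of its genes higher. Without tamoxifen library 3, limma called all 10 higher, and with them 7.22% of all genes higher and 3.48% lower. In the other 5 leave-outs it called 0 of the 10. With the replicate number as a block it called 2, Postn and Vcan, where it called 0.148% of all genes higher. The calls thus depend on the method and, in limma, on tamoxifen library 3. Nothing about the members is read from these counts, which come from the contrast that chose them.

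Hspa1b, the stress-inducible chaperone with the lowest adjusted p in limma, had another order of libraries. It stood at 78419, 49427 and 44218 normalised reads with tamoxifen, against 1091, 1526 and 1618 without. Tamoxifen library 3 was therefore with the other tamoxifen libraries in Hspa1b. Among the 10 matrix genes it was within the range without tamoxifen in 7, and above it in Col1a1, Postn and Vcan. Vcan was at 267 in that library, against 103 to 111 without tamoxifen.

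Levels of different chains can be set side by side only per length. On the scale of normalised reads per kilobase of merged exons, Col1a1 was the highest of the 10 genes in each of the 6 libraries and in columns 6 and 10. The ratio of Col1a2 to Col1a1 per kilobase was 0.251, 0.237 and 0.248 with tamoxifen, against 0.267, 0.243 and 0.232 without, so the groups overlapped and the ratio moved little while the levels of both genes varied widely. The ratio of Col3a1 to Col1a1 was 0.314, 0.287 and 0.322 with tamoxifen, against 0.392, 0.297 and 0.283 without, also with overlap. The size of these ratios depends on the length used. With the length of the principal transcript, a choice made after the data were seen, the median ratio over the 6 libraries was 0.515 for Col1a2 to Col1a1 and 0.487 for Col3a1 to Col1a1.

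The ratio of both type V chains, and that of 1 of the 2 type VI pairs, separated the 6 libraries by group. The ratio of Col5a2 to Col5a1 per kilobase was 0.416, 0.357 and 0.566 with tamoxifen, against 0.924, 1.79 and 0.894 without. All 3 tamoxifen libraries were below all 3 without tamoxifen, including library 3, whose levels of both genes were within the range without tamoxifen. The ratio of Col6a2 to Col6a1 was 0.508, 0.523 and 0.497 with tamoxifen, against 0.437, 0.471 and 0.447 without, again with no overlap of the 6 values. Their counting error is wider than the gap between the groups. The exact 95% interval was 0.405 to 0.610 in tamoxifen library 3, from 189 and 200 reads, and 0.336 to 0.661 in library 2 without tamoxifen, from 69 and 77 reads. For Col5a2 to Col5a1 the same intervals, which cover counting error only, were 0.4997 to 0.640 in tamoxifen library 3 and 0.757 to 1.06 in library 3 without tamoxifen, the closest pair between the groups. With principal transcripts the ratio of Col6a2 to Col6a1 was 1.002, 1.03 and 0.981 with tamoxifen, against 0.863, 0.930 and 0.882 without. The ratio of Col6a3 to Col6a1 per kilobase of merged exons was 0.718, 0.605 and 0.866 with tamoxifen, against 0.719, 0.756 and 1.22 without, with overlap. Col5a1 to Col1a1 was 0.118, 0.118 and 0.181 with tamoxifen, against 0.206, 0.185 and 0.188 without, with no overlap. The gap was narrow, from 0.181 in tamoxifen library 3 to 0.185 in library 2 without tamoxifen. These 2 values rest on 665 and 261 reads of Col5a1, and no interval for counting error was computed for this ratio. Column 6 had 0.311 for Col5a2 to Col5a1, 0.570 for Col6a2 to Col6a1 and 0.108 for Col5a1 to Col1a1, and column 10 had 0.620, 0.367 and 0.156 in the same order. With the names over the last 8 columns all 3 of these separations are lost. These ratios were compared after their values were seen and carry no test.

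**Figure D2:**
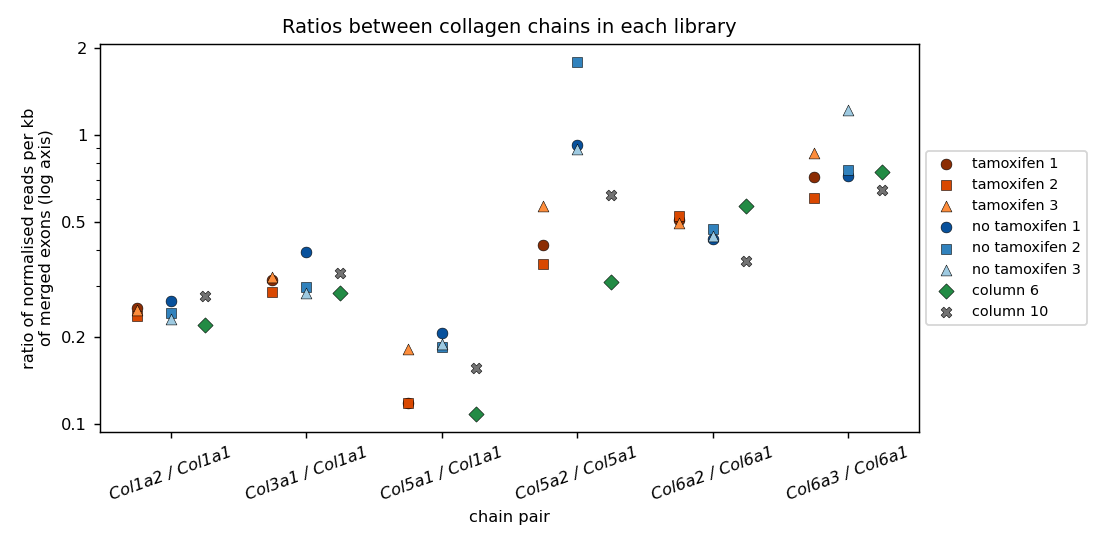
Ratio of collagen chains in normalised reads per kilobase of merged exons, 1 point per library, with tamoxifen left of no tamoxifen and columns 6 and 10 apart. The Col5a2 to Col5a1 ratio is 0.357 to 0.566 in the tamoxifen libraries and 0.894 to 1.79 in those without, while Col1a2 to Col1a1 lies at 0.232 to 0.267 in all 6.

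Overlapping genes can share reads, and whether the counting used strand is not stated in any source used here. In the GENCODE M21 annotation 6 of the 10 genes overlap another annotated gene, namely Col1a2, Col3a1, Col5a1, Col5a2, Col6a3 and Vcan. The overlaps are of whole gene spans, with exons and the strand of the partner not compared. Whether they affected any reads of these members was not tested.

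Column 6 held the highest value of each of the 10 genes. Col1a1 stood there at 233293 normalised reads, Col1a2 at 97082, Col3a1 at 99008 and Col6a3 at 31330. The 10 genes took 5.70% of its reads outside Rn45s. Its value was 2.44-fold above the highest other library in Postn and 6.79-fold in Col6a3, the lowest and the highest such ratio of the 10. Cdh5 was at 747 normalised reads in column 6, below each of the 6 libraries, and Csf1r at 151, also below each. Column 10 was far lower. It held 1372 normalised reads of Col1a1, 113 of Postn and 192 of Vcan. It was above every library without tamoxifen in 2 of the 10 genes, Postn and Vcan, within their range in 7 and below all of them in Col5a2, at 194.

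As a percentage of its value in column 6, Col1a1 was at 11.2% in tamoxifen library 1 and 18.3% in library 2. The other collagen chains lay close by, at 10.9% in Col6a2 to 16.4% in Col5a2 for library 1 and 14.7% in Col6a3 to 23.0% in Col5a2 for library 2. Vcan was at 16.5% and 18.5%. Postn was apart, at 35.9% and 41.0%. The medians over the 10 genes were 12.4%, 18.5% and 1.01% in the 3 tamoxifen libraries, against 1.10%, 0.553% and 0.497% in those without. Marker genes of other cell types varied more among themselves. Summed fibroblast and mesenchyme markers were at 24.0% and 33.3% of column 6 in tamoxifen libraries 1 and 2. Most of that sum was Dlk1, at 41.9% and 58.7%, and the sum of the other 9 genes was at 11.0% and 14.8%. Gene by gene, the median of the fibroblast list was 22.5% in tamoxifen library 1 and 21.2% in library 2. The medians of the 10 genes there were 12.4% and 18.5%. Pdgfra was at 7.97% and 10.7%, and single genes of the list ran from 1.09% in Tcf21 to 122% in Meox2 in library 1. Tcf21 was at only 1.02 normalised reads in that library, and Meox2 had a log2 fold change of 0.26. Cartilage markers summed to 14.4% and 10.7% of column 6 and mural markers to 19.5% and 21.0%. Erythroid markers summed to 1.67% and 1.93%, and to 1.58% and 1.64% without Hbb-bs, the largest of them. These percentages were computed after the likeness between column 6 and tamoxifen libraries 1 and 2 was seen, and the part of any shared source in the result was not tested.

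**Figure D3:**
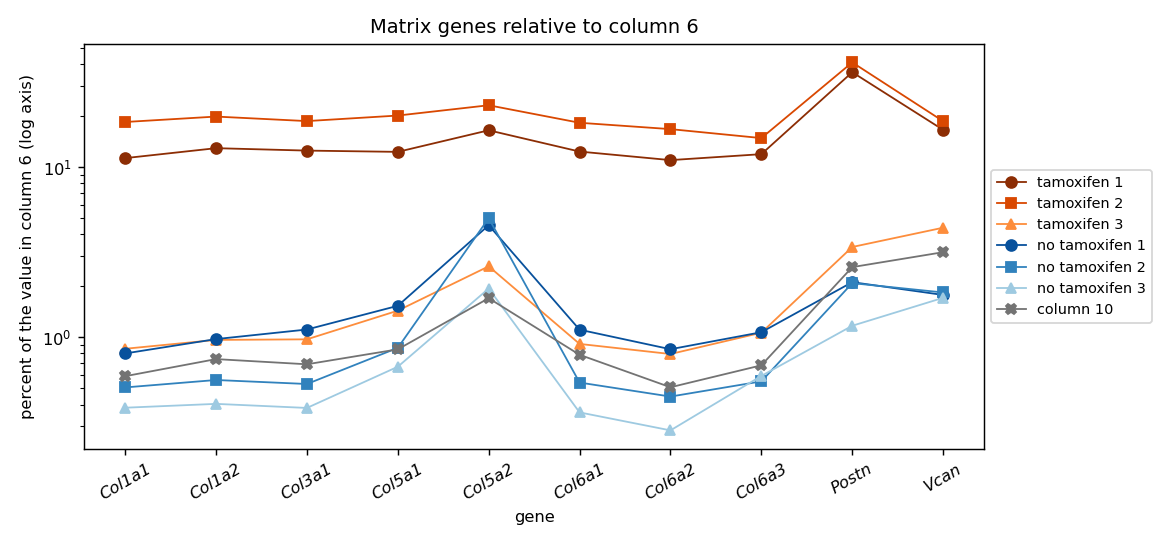
Value of each of the 10 genes as a percentage of its value in column 6, for the 3 tamoxifen libraries, the 3 libraries without tamoxifen and column 10. In tamoxifen libraries 1 and 2 the 8 collagen chains and Vcan lie at 10.9% to 23.0%, and Postn at 35.9% and 41.0%.

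Genes that act with these collagens were followed in 8 lists, 134 genes in all, of which 133 were in the table and 115 passed the filter on low values. The lists, like the 10 genes, were drawn up with earlier results of these libraries known. In limma 0 of the 115 were called higher and 0 lower, with a lowest adjusted p of 0.460. At an unadjusted p under 0.05 there were 49, against 9.01% of all tested genes in either direction. edgeR with TMM called 0 of the 115 and DESeq2 called 32 higher and 0 lower, where it called 1.83% of all its genes higher. Without tamoxifen library 3, limma called 71 higher and 1 lower, Itgb5, where 7.22% of all genes were called higher and 3.48% lower. Of the 115, 98 had a positive log2 fold change, and the median was 0.93. As with the 10 genes, 60 were more than 2-fold above every library without tamoxifen in tamoxifen library 1, 60 in library 2 and 1 in library 3, Has2, where the shares over all tested genes were 4.59%, 4.82% and 0.542%.

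Other fibrillar and type VI chains had the highest median of the 8 lists, 2.79 over 7 tested genes, all 7 with a positive log2 fold change. Col2a1, the cartilage collagen, had 12934, 11493 and 542 normalised reads with tamoxifen, against 403, 597 and 416 without. Unlike the 10 genes it was higher in tamoxifen library 1 than in library 2, and its log2 fold change was 3.22 ± 1.04 (SE). Col5a3, a further type V chain, had 354.5, 679 and 54.7 with tamoxifen, against 50.3, 31.3 and 23.6 without, and its groups did not overlap. In column 6 Col5a3 was at 299, below tamoxifen libraries 1 and 2. Col11a2 and Col27a1, both of cartilage, had log2 fold changes of 2.49 and 2.05, and Col6a6 had 3.61.

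Among fibril-associated and other collagens, 16 of 18 tested genes had a positive log2 fold change, with a median of 1.92. Col12a1, whose product coats type I fibrils, had 1894, 2383 and 142 normalised reads with tamoxifen, against 158, 103 and 63.9 without, the order of libraries seen in the 10 genes. Col8a1 and Col8a2, the network-forming type VIII chains, had log2 fold changes of 2.64 and 3.01, and Col9a3, of cartilage fibrils, had 2.89.

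Genes for chain modification, folding and export were closer together between the groups. Their median log2 fold change was 0.29 over 23 tested genes, 20 of them positive, and 4 and 7 of the 23 were more than 2-fold above every library without tamoxifen in tamoxifen libraries 1 and 2. The shares over all tested genes were 4.59% and 4.82%. Serpinh1, which encodes the collagen chaperone HSP47, had 3368, 3596 and 1017 normalised reads with tamoxifen, against 2103, 1627 and 1237 without, a log2 fold change of 0.51 ± 0.44 (SE). Tamoxifen library 3 was the lowest of the 6 for Serpinh1. The prolyl 4-hydroxylase gene P4ha1 had 873, 923 and 950 with tamoxifen, against 642, 842 and 610 without, with no overlap and with library 3 the highest. P4ha2 had a log2 fold change of 0.77, the lysyl hydroxylase gene Plod2 of 1.63, and P3h3, listed under its older symbol Leprel2, of 1.46.

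Enzymes that act after secretion were closer to the chains. Propeptide removal and cross-linking genes had a median of 1.21 over 11 tested genes, 10 of them positive. Lox, which encodes the lysyl oxidase that cross-links collagen and elastin, had 462, 619 and 44.9 normalised reads with tamoxifen, against 46.0, 30.2 and 19.0 without, a log2 fold change of 2.94 ± 0.87 (SE). Its relative Loxl1 had 3.47, the procollagen N-proteinase gene Adamts2 had 3.33, and the related Adamts3 had 1.21.

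Proteoglycans and glycoproteins that bind fibrils had a median of 1.39 over 17 tested genes, 15 of them positive. Decorin, from Dcn, limits fibril width, and Dcn had 336, 381 and 16.1 normalised reads with tamoxifen, against 24.3, 7.56 and 9.89 without. Lum, for lumican, had 225, 211 and 12.6 with tamoxifen, against 19.96, 16.2 and 3.04 without. Tnxb, for tenascin-X, had 584, 1099 and 37.2 with tamoxifen, against 24.3, 21.6 and 18.3 without, and 559 in column 6. Thbs2 and Ogn had log2 fold changes of 3.01 and 1.48. Sparc, whose product binds collagen and is plentiful in endothelium, had 5930, 7403 and 1861 with tamoxifen, against 4361, 3784 and 2271 without, a log2 fold change of 0.37 ± 0.48 (SE). Tgfbi, from the same protein family as Postn, had 1469, 1422 and 1559 with tamoxifen, against 1705, 1548 and 1698 without, a log2 fold change of -0.15 ± 0.10 (SE).

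Collagen receptors and uptake genes had a median of 0.09 over 15 tested genes, 10 of them positive. The discoidin domain receptor gene Ddr2, whose product binds fibrillar collagen, had 263, 333 and 30.9 normalised reads with tamoxifen, against 32.1, 18.4 and 12.9 without. Ddr1 had a log2 fold change of 1.88 and Mrc2, for a collagen uptake receptor, 2.65. Itgb5, for an integrin subunit, was lower in each tamoxifen library, at 823, 927 and 1137, against 1180, 1196 and 1256 without. Partners of versican and hyaluronan had a median of 0.83 over 12 tested genes, 10 of them positive. Has2, the main hyaluronan synthase gene of the embryo, had 59.4, 46.6 and 7.01 with tamoxifen, against 2.60, 2.16 and 2.28 without, at few reads in the libraries without tamoxifen. Acan, for aggrecan, had 1269, 946 and 33.0 with tamoxifen, against 11.3, 24.8 and 24.4 without, and both genes had no overlap between groups. Has3 and the versican-cleaving protease gene Adamts5 had log2 fold changes of 0.99 and 1.51. Degradation genes and their inhibitors had a median of 0.58 over 12 tested genes, 10 of them positive. Mmp2, for a gelatinase, had 510, 527 and 173 with tamoxifen, against 214, 198 and 148 without, with overlap. The collagenase genes Mmp8 and Mmp13 had log2 fold changes of 1.09 and 1.47, and the membrane-type protease gene Mmp16 had 1.74.

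**Figure D4:**
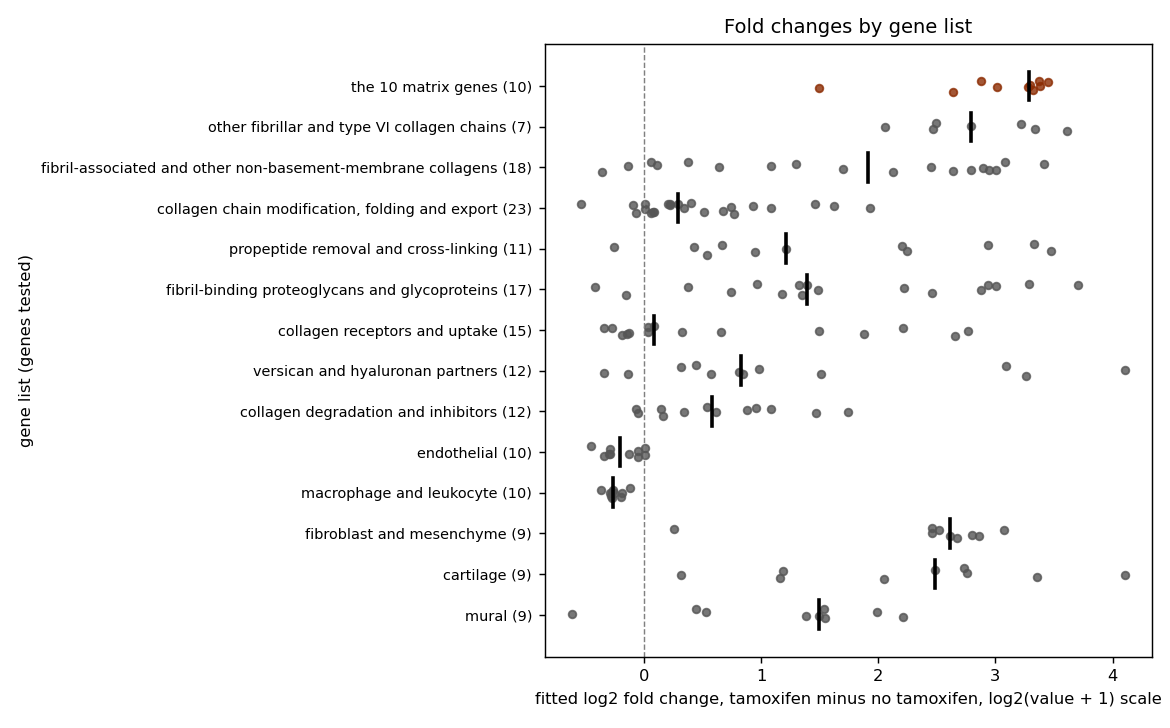
Log2 fold change of each tested gene, tamoxifen over no tamoxifen on the log2(value + 1) scale, with a line at each median. Shown are the 10 genes, the 8 lists of genes that act with them and the endothelial, macrophage, fibroblast, cartilage and mural marker lists. The medians run from 3.29 for the 10 genes to -0.27 for macrophage markers.

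Most tested fibroblast, cartilage and mural markers were higher in tamoxifen libraries 1 and 2, as the 10 genes were. The fibroblast and mesenchyme list, 10 genes of which 9 were tested, summed to 3514, 4873 and 489 normalised reads with tamoxifen, against 396, 369 and 355 without. Of the 9, 8 were more than 2-fold above every library without tamoxifen in tamoxifen library 1, 8 in library 2 and 0 in library 3, and the median log2 fold change was 2.62. The shares over all tested genes were 4.59%, 4.82% and 0.542%, at a limit taken after the values were seen. Pdgfra, the defining receptor gene of the fibroblast list, had 327, 441 and 41.4 with tamoxifen, against 29.5, 46.5 and 6.09 without, so it was at 0 in none of the 6. Cartilage markers summed to 2954, 2187 and 290 with tamoxifen, against 355, 390 and 262 without, and mural markers to 2209, 2379 and 746 with tamoxifen, against 1029, 662 and 635 without. Of 9 mural markers tested, 5 and 6 passed the 2-fold limit in tamoxifen libraries 1 and 2, against the same 4.59% and 4.82% of all tested genes. The lowest log2 fold change was 0.26 in the fibroblast list (Meox2), 0.32 in the cartilage list (Hapln1) and -0.61 in the mural list (Rgs5). Bone and osteoblast markers summed to 884, 825 and 487 with tamoxifen, against 443, 484 and 706 without. Only 2 of these were tested, Alpl and Runx2, with log2 fold changes of 2.35 and 0.31. Erythroid markers summed to 1002, 1159 and 386 with tamoxifen, against 203, 158 and 328 without, with Hba-a1 and Hba-a2 listed at 0 in all 6. Most of that sum in tamoxifen libraries 1 and 2 was Hbb-bs, at 849 and 1000. Of the 4 erythroid genes tested, 3 had a positive log2 fold change. The other, Hbb-y, had 16.4, 14.3 and 257 with tamoxifen, against 46.9, 54.0 and 170 without. Col2a1, Acan and Col9a3 above are themselves cartilage genes. The part of these cell types in the values of the 10 genes was not tested.

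Markers of the sorted cells and of myeloid cells were not far higher in tamoxifen libraries 1 and 2 than in those without tamoxifen. Endothelial markers summed to 18659, 19489 and 7883 normalised reads with tamoxifen, against 19470, 17037 and 11810 without, and tamoxifen library 3 was the lowest of the 6. Within each group the endothelial sums had the order most common in the 10 genes. Macrophage and leukocyte markers summed to 34955, 33188 and 53655 with tamoxifen, against 51842, 44087 and 47300 without, and tamoxifen libraries 1 and 2 were the lowest of the 6. Their median log2 fold changes were -0.21 and -0.27. Epithelial markers summed to 258, 264 and 194 with tamoxifen, against 153, 294 and 231 without. Neural markers summed to 1008, 1249 and 717 with tamoxifen, against 1563, 1436 and 881 without. Skeletal muscle markers summed to 249, 170 and 102 with tamoxifen, against 163, 173 and 158 without. The 4 Y-linked genes summed to 861, 1067 and 1000 with tamoxifen, against 631, 118 and 490 without, with no overlap. The part of embryo sex in the values of the 10 genes was not tested.

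**Figure D5:**
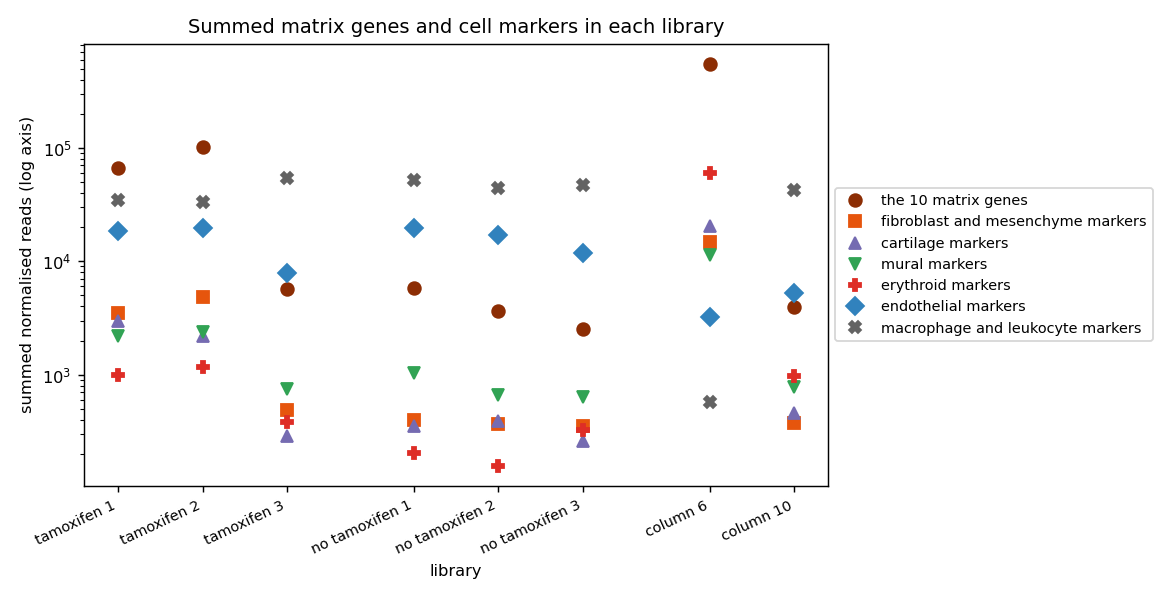
Summed normalised reads of the 10 genes and of cell type markers in each library on a log axis, tamoxifen libraries left of those without. The markers shown are the fibroblast, cartilage, mural, erythroid, endothelial and macrophage lists. Fibroblast sums are 3514 and 4873 in tamoxifen libraries 1 and 2 and 355 to 489 in the other 4, while endothelial sums are lowest in tamoxifen library 3, at 7883.

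The genes most like the 10 across the 6 libraries were sought among 10982 other tested genes whose mean was 50 normalised reads or more. Likeness was the root mean square difference of the centred log2 profile from the mean profile of the 10, so 0 is the same profile over 6 points that share their library. The closest was Lox, at 0.06, followed by Col12a1 at 0.14, Ddr2 at 0.18, Gpr153 at 0.21, Col5a3 at 0.22, Col8a2 at 0.23, Capn6 at 0.23, Svep1 at 0.25, Col16a1 at 0.26 and Zim1 at 0.28. Among the 10 themselves, Col5a1 was closest to their mean profile, at 0.12, and Vcan and Col5a2 were farthest, at 0.65 and 0.84. Lox was thus nearer to that mean profile than any of the 10 genes it was made from.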

How the data were processed

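RNA was sequenced from rRNA-depleted total RNA of sorted cells, per the labels' protocols. The deposited signal values are the authors' normalised reads per gene symbol. DESeq2, HTSeq 0.11.2 and STAR are the tools, and mm10 and hg38 the builds, per the submitters' processing notes, which give no roles. Each column's values were whole multiples of the worth of 1 read (100% of them, tolerance 0.001), so whole reads were recovered for depth, intervals and the count tests, in which edgeR called 5 genes higher and 0 lower and DESeq2 247 higher and 28 lower. Of the 9 value columns 1, the first, was not used. The planned comparison had 8 libraries, and the short header reduced it to 6, 3 per group.

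Genes whose mean reached 10 normalised reads, 13480 of them, entered limma 3.58.1 (R 4.3.3). The model had log2(value + 1), a trend of variance with mean, and group alone. Adjusted p values follow Benjamini and Hochberg, with a threshold of 0.05. Fold changes on that scale understate the change of low genes. The alternatives were other pseudocounts, filters and scalings, edgeR 4.0.16 with TMM, DESeq2 1.42.0, no trend, a replicate block, each library left out, both header placements and column 10 added. Cell types and companions of the 10 genes are given by lists, naming up to 4 tested genes per list by lowest p plus genes fixed by name. The members, lists and rules were chosen with earlier results of these data known. Positions are from GENCODE M21 on GRCm38. For Col6a2 to Col6a1 and Col5a2 to Col5a1, exact binomial intervals of the pair's reads were turned into ratios per kilobase. Intervals cover counting error only, since reads are not independent molecules.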

Additional observations from a re-analysis of the deposited data

Results flagged for a closer look

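Columns 6 and 10, which the comparison leaves out, hold member transcripts above every library without tamoxifen. In column 6, Col1a1 was at 233293 normalised reads, Col1a2 at 97082, Col3a1 at 99008, Col5a1 at 32677 and Col5a2 at 11465. Col6a1 was at 15416, Col6a2 at 16697, Col6a3 at 31330, Postn at 4382 and Vcan at 6095 in the same column. In column 10, Postn was at 113 normalised reads, against 51.0 to 92.0 in the libraries without tamoxifen, and Vcan at 192, against 103 to 111. Which sample each column holds depends on where the header names are set, and the source of the values was not tested.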

How the results depend on the processing

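The 6 libraries allow few calls, and 1 of them decides most. DESeq2 called 247 genes higher and 28 lower, limma with no trend 2 and 1. Over the 6 fits that leave out 1 library, limma called 2 to 973 genes higher and 0 to 469 lower, with the high ends without tamoxifen library 3. A fit that leaves 2 libraries in a group takes their spread as like that of the other group. With the names over the first 8 columns limma called 0 genes higher, and with column 10 added 1 lower. Of the 10 genes, DESeq2 called 9 and the leave-outs 0 to 10. In the lists, DESeq2 called 6 of 7 tested other fibrillar and type VI chains, 8 of 18 fibril-associated collagens and 3 of 23 modification genes higher. It called 4 of 11 propeptide and cross-linking genes, 6 of 17 fibril-binding genes, 2 of 15 receptors and 3 of 12 versican and hyaluronan partners higher. Over all genes it called 1.83% higher. The leave-outs called 0 to 7, 0 to 13, 0 to 11, 0 to 8, 0 to 14, 0 to 6 and 0 to 7 in the same order, 0 to 5 of 12 degradation genes higher and 0 to 1 receptors lower. The high ends were without tamoxifen library 3, where limma called 7.22% of all genes higher and 3.48% lower. The lists were drawn up with earlier results known, so nothing is read from these counts.

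Whether the replicate numbers pair the samples cannot be told, since deviations from a mean of 3 libraries constrain each other. The deviations of same-numbered libraries correlated at 0.20, 0.04 and 0.34. Tamoxifen library 2 went best with library 1 without tamoxifen, at 0.33. With the replicate block limma called 20 genes higher, 0.148% of those tested, and 1 lower, and 2 of the 10 genes, Postn and Vcan.

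The members' median log2 fold change was 2.49 to 4.54 over the leave-outs and 0.69 with the names over the last 8 columns, where Col5a2 turned to -0.35. That setting moves columns 6 and 10 together, and their shares in it cannot be told apart from this value. With column 10 alone added the median was 2.55, and with the names over the first 8 it was 4.18. With principal transcript lengths the median ratios were 0.515 for Col1a2 to Col1a1, 0.487 for Col3a1 to Col1a1 and 0.956 for Col6a2 to Col6a1, against 0.245, 0.306 and 0.484, because the lengths differ. All other causes were not tested. The other 549 values kept their direction, and counts of calls among them moved by at most 2. Limma called 5 genes higher with scaling by reads outside Rn45s, 5 without tamoxifen library 1 4 without tamoxifen library 2, 4 with the names over the last 8 columns and 8 with column 10 added, and edgeR called 5.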
